A study of Homo sapiens with 18 samples.

Results

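Base excision repair of oxidized DNA was followed through 10 genes, OGG1, MUTYH, NTHL1, NEIL1, NEIL2, APEX1, XRCC1, PARP1, POLB and LIG3, which were chosen by name among the 23411 gene symbols of the count tables. mRNA was counted in 18 samples of ARPE-19 cells, an immortalized human retinal pigment epithelial (RPE) line, with 3 samples in each of 6 groups. Control cells carried a lentivirus with the endonuclease Cas9 and no guide RNA. NRF2 ΔC cells, which come from 1 clone (C1), carried Cas9 and a guide to the fifth exon of NFE2L2, the gene of the transcription factor NRF2, and both of their edited alleles end in an early stop codon, so that the C-terminal part of the protein is lost. Each line was left untreated (water), treated with 1 mM N-acetyl-L-cysteine ethyl ester (NACET), a cell-permeable cysteine donor, or treated with 0.2 mM H2O2. The series text and the study's methods give 40 h of culture in 10 % serum and 8 h of treatment, whereas the sample protocols give 22 h, 2 h and 1 % serum, so the exposure behind the values below carries that doubt. No source says that the replicates were separate cultures, so the p-values measure the spread between these samples.

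Base excision repair replaces single damaged bases. A DNA glycosylase cuts the damaged base off its sugar, an endonuclease opens the strand at the empty site, a polymerase fills the gap and a ligase closes it, while scaffold and signalling proteins gather these enzymes at the break. It is the main route by which cells remove 8-oxoguanine and oxidized pyrimidines, lesions that hydrogen peroxide causes, and RPE cells are exposed to such oxidation in the eye by light and by the oxygen-rich choroid.

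All 10 genes were detected in every sample, and the highest of the 18 samples exceeded the lowest by 1.45-fold (NEIL2) to 2.4-fold (MUTYH). With H2O2, XRCC1, the scaffold of single-strand break repair, fell in control cells (log2 fold change -0.43, SE 0.1), and LIG3, the ligase that partners XRCC1, rose in NRF2 ΔC cells (0.53, SE 0.14). Each was 1 of 10 members, where 13.2% and 11.1% of all genes passed. Both calls come from fits without the replicate number. They were lost in most such fits that left out 1 sample, as XRCC1 passed in 2 of 6 and LIG3 in 1 of 6. No member passed the test with NACET in either line, between the lines under any treatment, or in the interaction of a treatment with the cell line. No member reached a log2 fold change of 0.6 in size in any of the 9 comparisons. When same-numbered samples of a line were compared as pairs, 3 to 6 members passed with each treatment, XRCC1 and LIG3 among them in all 4 comparisons, where 34% to 48.7% of all genes passed.

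The libraries held 16673306 to 25951154 reads on genes, of which the 10 members took 0.0498 to 0.0703%. NQO1, a known NRF2 target, averaged 229.6 CPM (reads on a gene scaled to the library size) in untreated control cells, 1131 with NACET and 806.4 with H2O2, against 14.1, 20.6 and 16.0 CPM in NRF2 ΔC cells. NFE2L2 itself ranged from 101.7 to 149 CPM over all samples, and a count of this gene does not test the edit. Of 11 RPE markers, 7 or 8 were high enough to test. OTX2 (107.2 to 181.1 CPM) and MITF (64.8 to 185.3 CPM) were present, as were KRT8 (425.1 to 684.3 CPM) and KRT18 (253.1 to 505.2 CPM). Markers of mature, pigmented RPE were low. RPE65 reached at most 0.0581 CPM, RLBP1 0.393 CPM and TYR 0.5 CPM, while TYRP1 ranged from 2.41 to 13.2 CPM, PMEL from 1.52 to 2.96 CPM, BEST1 from 0.185 to 3.54 CPM and SERPINF1 from 0.706 to 1.78 CPM. The 5 markers of other cell types together gave at most 0.352 CPM in any sample.

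Per length of the main transcript, the members spanned a wide range. In untreated control cells APEX1, the endonuclease that opens the strand at the empty site, was highest at 152 CPM per kb (± 17.2, SD, n = 3), followed by PARP1, the sensor of strand breaks, at 41.3 (± 4.94) and POLB, the polymerase that fills the 1-base gap, at 30.6 (± 5.08). XRCC1 came next at 20.7 CPM per kb (± 0.592). The glycosylases were lower, with NTHL1 at 12.5 (± 3.16), NEIL2 at 12.0 (± 0.924), OGG1 at 10.7 (± 0.985), NEIL1 at 5.73 (± 1.1) and MUTYH at 3.97 (± 0.395), and LIG3 was last at 2.55 CPM per kb (± 0.299). The samples of PARP1 and POLB overlapped, as did those of NTHL1, NEIL2 and OGG1 with each other. The order within these sets is not separated by these samples. By mean, the 4 ranks of APEX1, PARP1, POLB and OGG1 were the same in all 6 groups. The rank of OGG1 holds for this scale of the whole transcript.

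Reads were counted without regard to strand, which touches 3 members on this scale. In the GRCh37 annotation, 3754 bases (44.8%) of the LIG3 transcript lie over exons of RFFL on the other strand, 1832 bases (49.4%) of NEIL1 over MAN2C1, and 61 bases (3.74%) of OGG1 over CAMK1. Reads from such bases cannot be given to either gene. Per kb of the remaining bases, LIG3 would stand at 4.62 CPM in untreated control cells and NEIL1 at 11.3, which puts LIG3 above MUTYH and NEIL1 beside OGG1 (11.2). The levels of these 3 genes are therefore uncertain against the others, and their changes between groups are given with those of their neighbours where they matter.

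The stretches before the start sites were read for 4 short motifs, because NRF2 binds antioxidant response elements and the 2 lines differ in NRF2. The motifs, searched on both strands of the window from 250 bases before to 50 bases after each start, were the element's core TGACNNNGC, the E-box CACGTG, the cyclic AMP element TGACGTCA and the CCAAT box. RefSeq start sites (GRCh38.p14) were found for 8 members, all but NEIL2 and POLB. The core TGACNNNGC was in the windows of 2 of the 8, MUTYH and NTHL1, where 16.056% of all genes hold it. The E-box was in 3 of 8 (APEX1, NTHL1 and LIG3) against 8.775% of all genes, the CCAAT box in 5 of 8 against 39.722%, and TGACGTCA in 0 of 8 against 2.249%. A match describes the letters of the window and shows no binding.

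Shown first are the 30 bases around the 2 matches to the NRF2 motif, on the strand of the gene, with matched motifs in capitals. MUTYH lies at chr1:45340231-45340260 (minus strand, 1 of several start sites of this gene, the match 133 to 125 bases before it) and NTHL1 at chr16:2047855-2047884 (minus strand, the match 38 to 30 bases before the start, sharing 2 of its letters with an E-box).
MUTYH: gcggccaTGACACCGCtcgtctcccgcctg
NTHL1: ccttgcatCACGTGACGGGGCcgcatgggc

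The other stretches belong to the members that passed the test. LIG3 is given from 250 bases before its start to the base before it (chr17:34980262-34980511, plus strand), with its E-box in capitals, and XRCC1 from 250 to 40 bases before its start (chr19:43575567-43575777, minus strand), with a CCAAT box on the other strand in capitals.
LIG3: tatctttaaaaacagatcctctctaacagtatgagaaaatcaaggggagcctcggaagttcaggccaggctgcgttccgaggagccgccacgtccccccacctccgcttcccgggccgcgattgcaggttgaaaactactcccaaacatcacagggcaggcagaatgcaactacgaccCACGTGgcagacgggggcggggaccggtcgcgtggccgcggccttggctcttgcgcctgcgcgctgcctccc
XRCC1: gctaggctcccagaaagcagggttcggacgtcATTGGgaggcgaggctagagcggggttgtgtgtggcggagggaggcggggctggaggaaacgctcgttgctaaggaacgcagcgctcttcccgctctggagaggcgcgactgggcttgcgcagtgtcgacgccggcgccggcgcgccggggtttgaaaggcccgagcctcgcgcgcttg
Both stretches are rich in G and C (62.0% and 68.7%), and neither holds the core TGACNNNGC.

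Levels below are TMM-normalized CPM of single samples in the order of replicates 1, 2 and 3, and log2 fold changes come from edgeR's quasi-likelihood test against the untreated cells of the same line, with Benjamini-Hochberg adjusted p-values over all genes tested. Values called blocked come from the same test in which the replicate number was a block. Both treatments of a line are set against the same untreated samples.

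The first enzymes of the route are the 5 glycosylases. OGG1 cuts out 8-oxoguanine that faces cytosine, and stood at 15.9, 17.6 and 19.1 CPM in untreated control cells, 17.6, 18.6 and 21.6 with NACET and 14.5, 15.2 and 15.6 with H2O2. NRF2 ΔC samples stood at 16.3, 21.3 and 20.7 untreated, 20.9, 21.4 and 23.5 with NACET and 13.7, 15.8 and 16.3 with H2O2. In both lines every H2O2 sample lay below every untreated sample, by a narrow margin. The log2 fold changes with H2O2 were -0.19 (SE 0.11, adjusted p = 0.264) in control cells and -0.35 (SE 0.16, adjusted p = 0.194) in NRF2 ΔC cells, and the second passed with the block (-0.34, SE 0.13, adjusted p = 0.021). With NACET they were 0.14 (SE 0.12, adjusted p = 0.589) and 0.16 (SE 0.14, adjusted p = 0.591).

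NEIL1, a glycosylase for oxidized pyrimidines, stood at 23.6, 16.6 and 23.7 CPM in untreated control cells, 18.8, 14.2 and 20.4 with NACET and 13.8, 12.5 and 18.2 with H2O2. The NRF2 ΔC samples gave 17.7, 16.3 and 15.6 untreated, 16.6, 13.9 and 12.0 with NACET and 14.5, 10.4 and 14.5 with H2O2. Each treated sample was below the untreated sample of the same number in both lines, and the groups overlapped except for H2O2 in NRF2 ΔC cells. The log2 fold change with H2O2 was -0.51 (SE 0.19, adjusted p = 0.108, blocked adjusted p = 0.000317) in control cells and -0.32 (SE 0.18, adjusted p = 0.256, blocked adjusted p = 0.0303) in NRF2 ΔC cells. With NACET it was -0.26 (SE 0.19, adjusted p = 0.485, blocked adjusted p = 0.0102) and -0.23 (SE 0.16, adjusted p = 0.48, blocked adjusted p = 0.0767). MAN2C1, whose exons face those of NEIL1, also had lower values with H2O2, at -0.30 (adjusted p = 0.0734, blocked adjusted p = 0.000409) in control and -0.27 (adjusted p = 0.228, blocked adjusted p = 0.0298) in NRF2 ΔC cells, and its part in the NEIL1 counts was not tested.

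NEIL2, a related glycosylase that also acts in bubbles of transcribed DNA, stood at 30.9, 30.8 and 35.2 CPM in untreated control cells, 39.6, 39.3 and 44.7 with NACET and 33.6, 32.1 and 34.6 with H2O2. In NRF2 ΔC cells it stood at 32.1, 34.0 and 33.7 untreated, 40.4, 41.4 and 44.5 with NACET and 39.2, 37.01 and 38.9 with H2O2. All NACET samples of each line were above all its untreated samples, and the differences between same-numbered samples lay close together, from 0.345 to 0.356 on the log2 scale in control cells and from 0.282 to 0.397 in NRF2 ΔC cells. The fitted log2 fold changes were 0.35 (SE 0.1, adjusted p = 0.108, blocked adjusted p = 1.77e-05) and 0.33 (SE 0.1, adjusted p = 0.144, blocked adjusted p = 0.00408). With H2O2 they were 0.066 (SE 0.095, adjusted p = 0.679) in control and 0.21 (SE 0.13, adjusted p = 0.294) in NRF2 ΔC cells.

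MUTYH, which removes adenine paired with 8-oxoguanine, had the lowest counts, from 103 to 264 reads and from 5.03 to 12.0 CPM over the 18 samples. Its samples overlapped between all groups of a line. In control cells with NACET it stood at 6.86, 10.4 and 9.07 CPM against 6.16, 6.68 and 7.5 untreated (log2 fold change 0.37, SE 0.18, adjusted p = 0.288, blocked adjusted p = 0.00973). NTHL1, a glycosylase for oxidized pyrimidines such as thymine glycol, ranged from 9.9 to 20.5 CPM and overlapped between all groups too, with log2 fold changes from 0.021 to 0.22 and adjusted p-values from 0.592 to 0.956 in the 4 treatment comparisons. MUTYH and NTHL1, the 2 of 8 searched members with the NRF2 motif core, had no unblocked call with either treatment in either line. With the block, only MUTYH of these passed, with NACET in control cells. NEIL2 and POLB had no start-site window, so the motif was not sought in them.

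**Figure D1:**
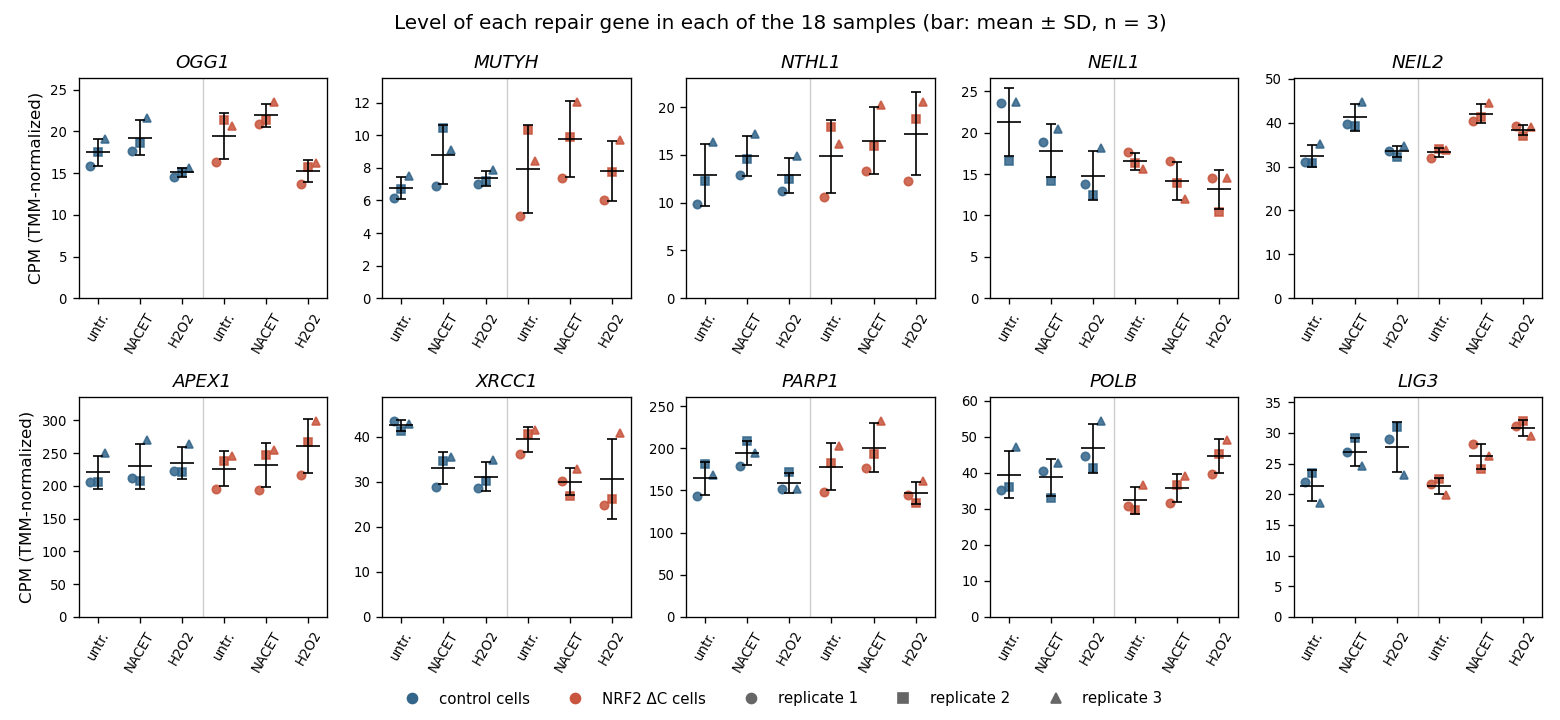
Each panel gives the TMM-normalized CPM (linear axis from 0) of 1 gene in the 18 samples, by cell line and treatment, with the mean ± SD of the 3 samples of a group and a marker shape per replicate number. NEIL2 lies higher with NACET in both lines (39.3 to 44.7 CPM against 30.8 to 35.2), XRCC1 lies lower with H2O2 in control cells (28.7 to 34.8 against 41.2 to 43.6), and replicate 1 of APEX1 and NTHL1 lies at or near the bottom of most groups.

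APEX1, the endonuclease, stood at 206.1, 206.6 and 249.7 CPM in untreated control cells, 211.8, 207.4 and 270.0 with NACET and 222.5, 220.7 and 263.8 with H2O2. The NRF2 ΔC samples gave 195.4, 238.4 and 245.7 untreated, 193.8, 246.6 and 255.3 with NACET and 217.2, 266.8 and 299.9 with H2O2. The groups overlapped throughout, and the replicate number rather than the treatment separated the samples. Of the sum of squares of log2 CPM over the 9 samples of a line, the replicate number held 90.5% for control cells and 77.2% for NRF2 ΔC cells, whereas the treatment held 6.9% and 20.7%. The log2 fold changes were 0.025 to 0.21, with adjusted p-values from 0.406 to 0.952 and blocked ones from 0.0524 to 0.816.

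PARP1, which senses strand breaks and marks them with ADP-ribose, stood at 142.9, 181.6 and 168.5 CPM in untreated control cells, 179.4, 208 and 194 with NACET and 151.9, 172 and 151.7 with H2O2. For NRF2 ΔC cells the values were 148.6, 182.8 and 203 CPM untreated, 176.5, 193.2 and 232.8 with NACET and 144.8, 135.2 and 161.3 with H2O2. Samples overlapped in each comparison, though every NACET sample exceeded the untreated sample of its number. With NACET the log2 fold change was 0.23 (SE 0.11, adjusted p = 0.28, blocked adjusted p = 0.000292) in control and 0.17 (SE 0.16, adjusted p = 0.629, blocked adjusted p = 0.0685) in NRF2 ΔC cells. With H2O2 it was -0.034 (SE 0.11, adjusted p = 0.862) in control and -0.27 (SE 0.15, adjusted p = 0.261, blocked adjusted p = 0.0238) in NRF2 ΔC cells.

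XRCC1 binds PARP1, POLB and LIG3 and holds them at the break. In control cells it stood at 43.6, 41.2 and 42.8 CPM untreated, 28.9, 34.7 and 35.5 with NACET and 28.7, 30.1 and 34.8 with H2O2. The NRF2 ΔC samples gave 36.2, 40.7 and 41.4 CPM untreated, 30.3, 27.0 and 32.9 with NACET and 24.8, 26.1 and 40.9 with H2O2. Every treated control sample lay below every untreated one, and so did the NACET samples of NRF2 ΔC cells, whereas replicate 3 of NRF2 ΔC cells with H2O2 remained at the untreated level. With H2O2, XRCC1 fell in control cells (log2 fold change -0.43, SE 0.1, adjusted p = 0.0285, blocked adjusted p = 0.000115). It was the 1 of 10 members that passed in this comparison, where 13.2% of all genes tested passed and 6.16% passed as lower. The unblocked call was lost without untreated replicate 1 or 2 or without H2O2 replicate 1 or 2 (adjusted p = 0.0709 to 0.134). In NRF2 ΔC cells with H2O2 the value was -0.36 (SE 0.2, adjusted p = 0.267, blocked adjusted p = 0.00415), and with NACET it was -0.37 (SE 0.11, adjusted p = 0.1, blocked adjusted p = 3.14e-06) in control and -0.40 (SE 0.12, adjusted p = 0.143, blocked adjusted p = 0.00223) in NRF2 ΔC cells.

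POLB, which fills the gap and trims the sugar left behind, stood at 35.3, 36.2 and 47.1 CPM in untreated control cells, 40.6, 33.0 and 42.7 with NACET and 44.7, 41.4 and 54.5 with H2O2. Those of NRF2 ΔC cells were 30.8, 29.8 and 36.6 CPM untreated, 31.5, 36.7 and 39.2 with NACET and 39.7, 45.4 and 49.0 with H2O2. The H2O2 samples of NRF2 ΔC cells were all above the untreated ones, and in control cells the groups overlapped. With H2O2 the log2 fold change was 0.26 (SE 0.14, adjusted p = 0.251, blocked adjusted p = 0.00242) in control and 0.47 (SE 0.15, adjusted p = 0.0757, blocked adjusted p = 0.000305) in NRF2 ΔC cells. With NACET it was -0.032 (SE 0.15, adjusted p = 0.939) and 0.14 (SE 0.13, adjusted p = 0.644).

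LIG3 seals the nick, in the nucleus with XRCC1 and in mitochondria without it. It stood at 22.1, 23.5 and 18.6 CPM in untreated control cells, 26.8, 29.2 and 24.6 with NACET and 29.0, 31.0 and 23.1 with H2O2. Its level in NRF2 ΔC cells was 21.7, 22.5 and 20.0 CPM untreated, 28.3, 24.1 and 26.2 with NACET and 31.1, 32.0 and 29.5 with H2O2. Each treated sample was above the untreated sample of its number in both lines, and the groups overlapped for H2O2 in control cells alone. With H2O2, LIG3 rose in NRF2 ΔC cells (log2 fold change 0.53, SE 0.14, adjusted p = 0.0385, blocked adjusted p = 0.000107). It was the 1 of 10 members that passed there, where 11.1% of all genes passed and 4.96% passed as higher. The unblocked call was lost in 5 of the 6 fits that left out 1 sample, with adjusted p-values from 0.0695 to 0.15. It held in the fit without H2O2 replicate 1. In control cells with H2O2 the value was 0.39 (SE 0.14, adjusted p = 0.11, blocked adjusted p = 0.000391), and with NACET it was 0.32 (SE 0.13, adjusted p = 0.198, blocked adjusted p = 0.00041) in control and 0.28 (SE 0.12, adjusted p = 0.264, blocked adjusted p = 0.0276) in NRF2 ΔC cells. RFFL, whose exons face those of LIG3, was at 5.11 to 12.2 CPM, with -0.13 (adjusted p = 0.664) in control and -0.088 (adjusted p = 0.776) in NRF2 ΔC cells with H2O2 and 0.57 (adjusted p = 0.104, blocked adjusted p = 5e-06) and 0.33 (adjusted p = 0.35) with NACET. Its part in the LIG3 counts was not tested.

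**Figure D2:**
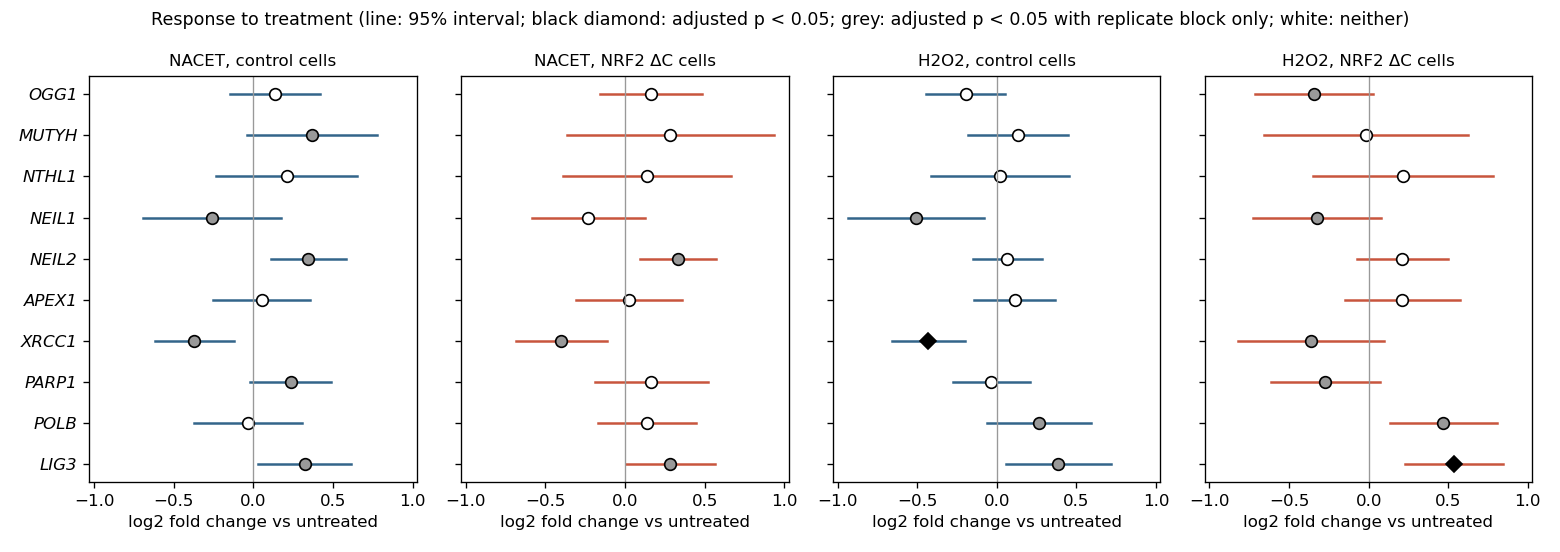
Points give the log2 fold change of each gene against untreated cells of the same line, fitted by edgeR on 3 samples a group, and lines the 95% interval; black diamonds passed at an adjusted p under 0.05, grey circles passed with the replicate block alone, and white circles passed in neither. Black diamonds stand at XRCC1 with H2O2 in control cells (-0.43) and at LIG3 with H2O2 in NRF2 ΔC cells (0.53), and every point lies between -0.51 and 0.53.

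Counted over the members, 0 of 10 passed with NACET in control cells, where 3.67% of all genes passed, and 0 of 10 in NRF2 ΔC cells, where 1.43% did. An unadjusted p under 0.05 was found for 3 members with NACET in control cells, 3 with H2O2 in control cells, 3 with NACET in NRF2 ΔC cells and 2 with H2O2 in NRF2 ΔC cells, and for 20.8%, 30.7%, 18.6% and 29.7% of all genes. DESeq2 gave 0 calls with NACET in both lines. The ranges of the 3 treated and 3 untreated samples were apart for 3, 2, 3 and 5 members in the same order, where 26.3%, 34.8%, 24.9% and 33.3% of all genes had ranges apart. In control cells the median log2 fold change of the members was 0.17 for NACET and 0.044 for H2O2, and for NRF2 ΔC cells it was 0.15 and 0.097, beside medians of -0.006, -0.004, -0.007 and -0.009 over all genes tested.

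With replicate number blocked, 6 of 10 members passed with NACET in control cells, 4 with H2O2 in control cells, 3 with NACET in NRF2 ΔC cells and 6 with H2O2 in NRF2 ΔC cells. Of all genes, 40.7%, 48.7%, 34% and 46.5% passed in these fits, so the members' shares lay on both sides of those of all genes. NEIL2, XRCC1 and LIG3 passed with NACET in both lines in these fits, and NEIL1, XRCC1, POLB and LIG3 with H2O2 in both lines. Treatment held most of the variation of NEIL2 (80.6% for control and 90.3% for NRF2 ΔC cells) and of OGG1 (68% and 75.4%). It also held most of that of PARP1 (57.5% in both lines) and of LIG3 (56.5% and 89.3%). The replicate number held most of that of APEX1 and of NTHL1 (75.1% and 81.5%). These shares were worked out for the members only, so those of all genes do not stand beside them. The share of LIG3 held by the replicate number differed between the lines, at 40.7% in control cells and 3.3% in NRF2 ΔC cells.

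**Figure D3:**
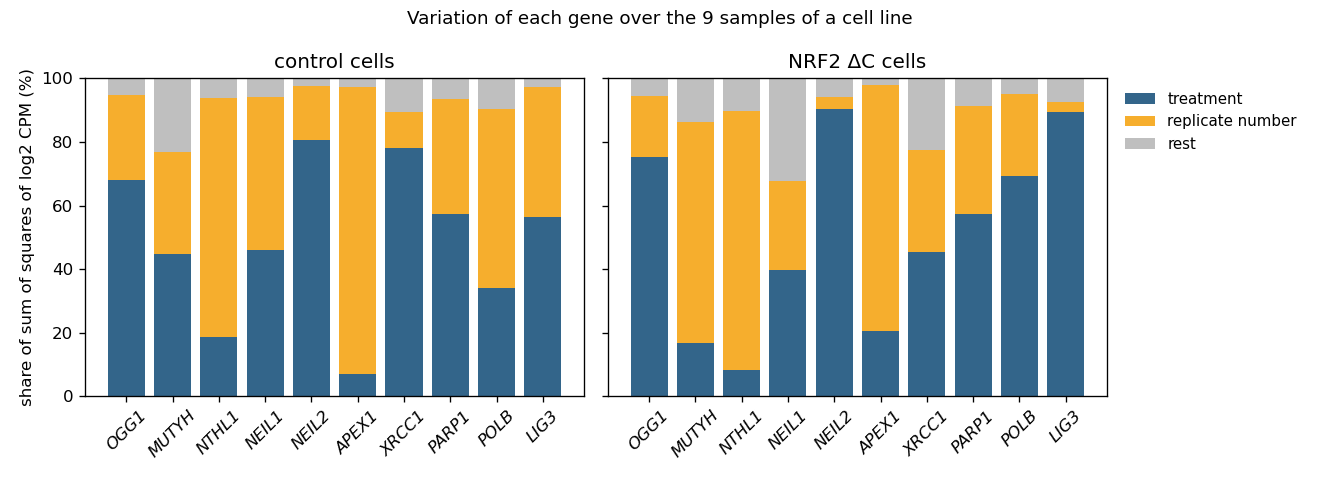
Stacked bars give, for each gene and cell line, the share (%) of the sum of squares of log2 CPM over 9 samples held by the treatment, by the replicate number and by neither. APEX1 and NTHL1 are held mainly by the replicate number in both lines (75.1 to 90.5%), and NEIL2 mainly by the treatment (80.6 and 90.3%).

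Between the lines, the question was whether members differed in the clone where NRF2 is truncated. All NRF2 ΔC samples come from 1 clone, so the truncation and other traits of the clone cannot be told apart. None of the 10 passed in untreated cells, with NACET or with H2O2, where 4.07%, 5.42% and 6.23% of all genes passed, and 0 members had an unadjusted p under 0.05 in any of the 3, where 13.7%, 18.6% and 23.7% of all genes did. DESeq2 gave 0 calls too. In untreated cells the largest difference was that of NEIL1, with a mean of 16.5 CPM (± 1.05) in NRF2 ΔC and 21.3 CPM (± 4.06) in control cells, a log2 fold change of -0.37 with a 95% interval from -0.744 to 0.009 (adjusted p = 0.38). With NACET it was again NEIL1, at -0.34 (interval -0.767 to 0.091, adjusted p = 0.391). With H2O2 it was NTHL1, with 17.2 CPM (± 4.32) against 12.9 CPM (± 1.86), a log2 fold change of 0.42 (interval -0.051 to 0.884, adjusted p = 0.26). NEIL2 was the 1 member whose samples did not overlap between the lines with H2O2 (0.20, SE 0.12, adjusted p = 0.334), where 26.6% of all genes had ranges apart. The samples of all other members overlapped in all 3 comparisons, while 18.5% of all genes had ranges apart in untreated cells and 24% with NACET. The intervals leave room for a log2 difference of up to 0.884 in size, so small differences between the lines were not detectable with 3 samples a group.

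The interaction, coded as the response of control cells minus that of NRF2 ΔC cells, passed for no member with NACET (0.0643% of all genes passed) or with H2O2 (0.0214%), and 0 members had an unadjusted p under 0.05, which 1.63% and 5.76% of all genes had. DESeq2 gave no call among the members. With NACET the largest value was that of POLB (-0.17, interval -0.611 to 0.275, adjusted p = 1), and the values of the other 9 lay between -0.032 and 0.083. For NEIL2 the responses to NACET, 0.35 and 0.33, differed by 0.014 with an interval from -0.266 to 0.294. For XRCC1 they differed by 0.028, with an interval from -0.308 to 0.364. The interaction of NQO1 with NACET was 1.75 (SE 0.32, adjusted p = 0.148, blocked adjusted p = 0.0201), from log2 fold changes of 2.3 (adjusted p = 0.00924) in control and 0.54 (adjusted p = 0.126, blocked adjusted p = 0.000469) in NRF2 ΔC cells, so this known target did not pass the unblocked interaction either. The block of that interaction was shared by both lines, a pairing that did not hold between them. With H2O2 the largest interactions were those of POLB (-0.22, interval -0.679 to 0.23, adjusted p = 0.923) and PARP1 (0.22, interval -0.181 to 0.62, adjusted p = 0.919). LIG3, which passed with H2O2 in NRF2 ΔC cells and not in control cells, had an interaction of -0.16 (interval -0.57 to 0.243, adjusted p = 0.923), so its response was not shown to differ between the lines, and for XRCC1 the value was -0.09 (interval -0.601 to 0.42, adjusted p = 0.958).

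The wider pathway was described with 4 lists, and calls are those of the unblocked fits unless the block is named. Of 6 other DNA glycosylases, UNG, which removes uracil, rose with NACET in control cells (0.62, SE 0.13, adjusted p = 0.0457), from 46.6, 57.7 and 62.3 CPM to 74.4, 91.0 and 90.9 CPM. NEIL3, a glycosylase expressed mainly in dividing cells, fell with H2O2 in NRF2 ΔC cells (-1.24, SE 0.32, adjusted p = 0.0385), from 7.61, 10.8 and 15.0 CPM to 4.2, 3.28 and 6.56 CPM. With H2O2 it was lower than in control cells (-1.11, SE 0.27, adjusted p = 0.0425), a comparison where 6.23% of all genes passed. The untreated and treated samples did not overlap for either gene. No other glycosylase of the list passed in any of the 9 comparisons. With the block, 3 of 6 passed in each of the 4 treatment comparisons, where 34% to 48.7% of all genes passed. UNG passed in all 4, higher with NACET (0.62 for control and 0.48 for NRF2 ΔC cells) and lower with H2O2 (-0.24 and -0.64). Of 6 proliferation markers, none passed unblocked with NACET in control cells. MCM5 stood there at 0.53 (adjusted p = 0.294, blocked adjusted p = 5.48e-16) and MCM2 at 0.46 (adjusted p = 0.264, blocked adjusted p = 1.29e-12). CDK1 stood at 0.13 (blocked adjusted p = 0.0475), TOP2A at -0.035, CCNB1 at -0.14 and MKI67 at -0.15 (blocked adjusted p = 0.0388). The part of these markers in the rise of UNG was not tested.

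Of 7 genes for end processing, ADP-ribose and short-patch partners, 1 passed with H2O2 in each line and none elsewhere, where 13.2% of all genes passed in control and 11.1% in NRF2 ΔC cells. With the block, where 34% to 48.7% of all genes passed, 3 of 7 passed with NACET in either line. With H2O2, 2 passed in control cells and 4 in NRF2 ΔC cells. PARG, which removes the ADP-ribose chains, rose in control cells (0.40, SE 0.1, adjusted p = 0.036), from 15.8, 17.4 and 16.5 CPM to 22.7, 21.0 and 21.4 CPM. APTX, which clears failed ligations, rose in NRF2 ΔC cells (0.55, SE 0.13, adjusted p = 0.0321), from 36.5, 35.2 and 40.6 CPM to 51.4, 54.5 and 57.6 CPM. APTX, like LIG3 and POLB, encodes a protein that works at breaks held by XRCC1. The list did not move as one in NRF2 ΔC cells with H2O2. Of the 4 that passed there with the block, 3 were higher and TDP1 was lower (-0.55, adjusted p = 0.0797, blocked adjusted p = 3.81e-05). The medians of the 7 genes were 0.022 in control and 0.18 in NRF2 ΔC cells with H2O2.

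Of the 5 long-patch genes FEN1, LIG1, PCNA, POLD1 and RFC1, none passed in any of the 9 comparisons without the block. With it, 3 of 5 passed with NACET in control cells, 2 with NACET in NRF2 ΔC cells and 3 with H2O2 in each line. In these fits 34% to 48.7% of all genes passed. FEN1, which cuts the displaced flap, stood at 0.54 with NACET in control cells (blocked adjusted p = 2.61e-16) and at -0.58 with H2O2 in NRF2 ΔC cells (blocked adjusted p = 3.6e-06). PCNA, the clamp of DNA polymerases, stood at 0.44 with NACET (blocked adjusted p = 1.56e-12) and 0.59 with H2O2 (blocked adjusted p = 1.56e-07) in control cells and at 0.60 with H2O2 in NRF2 ΔC cells (blocked adjusted p = 1.54e-07). Their median log2 fold changes lay between -0.06 and 0.41. Of the 2 genes listed that clear oxidized nucleotides before they enter DNA, NUDT18 fell with H2O2 in control cells (-0.84, SE 0.11, adjusted p = 0.00418), from 23.4, 26.0 and 24.9 CPM to 13.0, 13.0 and 15.0 CPM, and NUDT1 passed there with the block alone (-0.35, adjusted p = 0.00967). In NRF2 ΔC cells NUDT18 stood at 26.3, 20.5 and 21.6 CPM untreated and 17.5, 19.5 and 22.1 CPM with H2O2, and the groups overlapped.

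Genes of dividing cells moved with H2O2 in NRF2 ΔC cells, beside LIG3, APTX and NEIL3. Of 6 proliferation markers, 4 fell there, where 11.1% of all genes passed, MKI67 by 2.04 on the log2 scale (adjusted p = 0.00298). None passed with H2O2 in control cells or with NACET in either line. With the block, where 34% to 48.7% of all genes passed, all 6 passed as lower with H2O2 in NRF2 ΔC cells. In control cells with H2O2, 3 passed as lower (MKI67, MCM2 and MCM5). With NACET, 3 passed as higher and 1 as lower in control cells, and 2 in each direction in NRF2 ΔC cells. The 6 markers together gave 350.9 to 573.3 CPM in the H2O2 samples of NRF2 ΔC cells against 932.3 to 1559 CPM untreated. In control cells they gave 795.1 to 957.4 CPM with H2O2 against 697 to 1187 CPM untreated. The summed level of the 11 RPE markers was 955.7 to 1022 CPM with H2O2 against 1361 to 1381 CPM untreated in control cells, beside the fall of XRCC1, and 944.7 to 1056 against 1309 to 1439 CPM in NRF2 ΔC cells. With NACET the sum was 1134 to 1289 CPM in control cells, again below all untreated samples. In NRF2 ΔC cells it was 1117 to 1324 CPM with NACET, which overlapped the untreated samples. KRT8, KRT18, MITF and OTX2 make up most of that sum, and the list did not move as one. With H2O2 in control cells KRT8 (-0.49, adjusted p = 0.0123) and KRT18 (-0.53, adjusted p = 0.00937) fell while BEST1 rose (1.7, adjusted p = 0.00751), and for NRF2 ΔC cells MITF fell (-0.74, adjusted p = 0.0388) while BEST1 rose (3.76, adjusted p = 0.00118). The part of either list in the results on XRCC1 and LIG3 was not tested, and in bulk samples fewer cells of a type and less RNA per cell cannot be told apart.

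Among 9798 other genes of at least 10 CPM, the 3 whose log2 CPM over the 18 samples were most like XRCC1 were ARHGAP27, MAPK3 and OBSL1 (Pearson r = 0.913, 0.91 and 0.905). For LIG3 they were FXC1, SLC39A14 and CHFR (r = 0.919, 0.919 and 0.917). XRCC1 and LIG3 ran against each other over the 18 samples, with r = -0.706. These values describe samples that share cell lines, treatments and replicate numbers.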

How the data were processed

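The members and the gene lists were chosen with earlier results of these data known, and the 3 genes facing members on the other strand were added after the data were seen. The authors made polyA libraries (TruSeq v2), sequenced them as single-end reads, mapped them to hg19 with TopHat 2.1.0, counted reads per gene with HTSeq 0.11.2 without regard to strand, and removed ribosomal RNA genes. The gene annotation is not given in the sources used here. The deposited values are raw counts per gene symbol, and 4060 of the 23411 symbols had no count in any sample. The 5 summary lines of each file, 25.8 to 27.9% of reads, stayed out of library sizes and tests. All 18 replicate pairs differed by more than counting error.

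Groups and replicate numbers came from the labels. Counts were tested with edgeR 4.0.16 (R 4.3.3; filterByExpr, TMM, quasi-likelihood), each pair of groups on its own 6 samples and each interaction over 12, with Benjamini-Hochberg adjustment over all genes tested. A call needed an adjusted p under 0.05. The 95% intervals are those of the fitted log2 fold changes. Scripts were checked on simulated counts. Alternatives were DESeq2 1.42.0, its size factors, no low-count filter, 1 fit of all 18 samples, a fold limit of 0.6 on the log2 scale, leaving out each sample, and the replicate number as a block. The labels do not say what a replicate number marks. Over 9807 genes, deviations from group means of same-numbered samples of a line correlated at r = 0.472 to 0.886 in every pair, so the numbers were taken to pair the samples within a line.

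Named were all 10 members, genes of the pathway lists that passed (at most 3 per list and comparison, the largest changes), the 3 genes most like XRCC1 and LIG3 (Pearson r, at least 10 CPM), NFE2L2 and NQO1. Some genes of the pathway lists are not reported here. Levels per kb used the MANE transcript of GENCODE on GRCh37, the same assembly as hg19. Start-site sequences are from RefSeq (GRCh38.p14) and are printed only where they avoid longer untranslated exons. Counts were 103 to 7042 reads per member and sample. For members with few reads, such as MUTYH, counting error was not small beside the spread between replicates in every group. Figures were drawn with matplotlib.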

Additional observations from a re-analysis of the deposited data

How the results depend on the processing

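Directions of the 2 members that passed held under every alternative run. The number of members that passed with H2O2 in control cells was 1, and it was 0 with the fold limit, 0 in 1 fit of all 18 samples, 4 with the replicate block and 0 to 1 when single samples were left out. With H2O2 in NRF2 ΔC cells it was 1, and it was 0 with the fold limit, 2 with DESeq2 and 2 in 1 fit of all 18 samples (POLB and LIG3 in both), 6 with the block and 0 to 2 when samples were left out (2 without H2O2 replicate 1). With NACET it was 0, and it was 1 in 1 fit of all 18 samples in either line (NEIL2), 6 with the block in control and 3 in NRF2 ΔC cells. Between the lines with H2O2 it was 0 to 1 when samples were left out (NTHL1, 0.61, adjusted p = 0.0185, without NRF2 ΔC H2O2 replicate 1). The other counts of members did not move. The replicate number did not pair samples between the lines (r = -0.274 to 0.803, replicate 2 being below 0 in all 3 comparisons), and with it as a block 1212, 2307 and 3179 genes passed in untreated, NACET and H2O2 cells instead of 558, 739 and 846, none of them a member. With 1 replicate block shared by both lines, the interactions gave 38 and 165 genes instead of 9 and 3, and again no member. The blocked value of the NQO1 interaction is from this fit, so it rests on a pairing that did not hold between the lines.

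Small values turned sign when 1 sample was left out. With NACET in control cells APEX1 ran from -0.076 to 0.149 and POLB ran from -0.103 to 0.112, and with H2O2 NTHL1 ran from -0.128 to 0.226 and PARP1 from -0.116 to 0.04. With NACET in NRF2 ΔC cells NTHL1 ran from -0.04 to 0.295 and APEX1 from -0.055 to 0.141. MUTYH with H2O2 in NRF2 ΔC cells (-0.017) was 0.004 in 1 fit of all 18 samples, 0.003 with the block, and -0.235 to 0.218 without single samples. The causes were not tested. The intervals given are those of the unblocked fits, and the block resolved smaller differences within a line.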

Other observations

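Over the 18 samples, log2 CPM of OGG1 and PARP1 ran together (Pearson r = 0.826), as did those of NTHL1 with APEX1 (0.827) and with MUTYH (0.818), while NEIL1 and LIG3 ran against each other (-0.693). These values describe samples that share cell lines, treatments and replicate numbers, and for NTHL1 and APEX1 the replicate number held most of the variation within each line.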
